A study of Mus musculus with 6 samples.

Results

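The 9 genes described here encode transcription factors of epidermal commitment and terminal differentiation: Trp63, Klf4, Grhl1, Grhl3, Ovol1, Zfp750, Prdm1, Gata3 and Cebpa. They were listed by name, by their known roles, and no threshold on a measured value entered the list, although earlier results of these data were known when it was made. All 9 had a row among the 43629 genes of the count table, and all 9 passed the filter on low counts, which kept 16829 genes. RNA sequencing compared primary keratinocytes from 3 Dnmt1Δ/Δep mice with those from 3 control mice. Dnmt1Δ/Δep mice are K5-Cre+ Dnmt1 f/f. Cre recombinase from the Keratin 5 promoter, which is active in basal keratinocytes and their descendants, deletes Dnmt1 in the epidermis. Dnmt1 was not measured separately in other cells of the culture. Control mice of the study are Dnmt1 f/f or Dnmt1 f/+ without Cre, and the labels do not say which genotype a given control library had. All 6 libraries are labelled female. Epidermis was taken at postnatal day 3, and the keratinocytes were grown for 5 days according to the labels and the methods, although a legend of the study gives a shorter time. The medium of both groups held 8% chelated serum and 0.05 mM CaCl2, and RNA was selected for poly(A) before sequencing. These are bulk cultures, so fewer cells of a type and less RNA per cell cannot be told apart.

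DNMT1 copies DNA methylation at CpG sites to the daughter strand after replication. The epidermis is renewed from a basal layer, whose cells stop dividing, move upwards and cornify. p63, the product of Trp63, is required for the stratified epithelium and for the identity of basal cells. OVOL1 restrains proliferation of cells that leave the basal layer, and CEBPA is a CCAAT-enhancer binding protein linked to cell cycle exit and the first suprabasal steps. GATA3 acts in the hair follicle inner root sheath and in barrier lipid synthesis. KLF4, GRHL3, GRHL1, ZFP750 and PRDM1 act in the late program: KLF4 and GRHL3 are needed for the barrier, GRHL1 controls desmosomal cadherin genes, ZFP750 is a target of p63 that works with KLF4 and chromatin regulators, and PRDM1 (BLIMP1) is a repressor of the granular layer. Low calcium keeps cultured keratinocytes growing and holds back terminal differentiation.

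Positions are those of GENCODE M21 on GRCm38. On the plus strand the annotation places Trp63 (ENSMUSG00000022510) at chr16:25683763-25892102, Grhl1 (ENSMUSG00000020656) at chr12:24572283-24617391 and Cebpa (ENSMUSG00000034957) at chr7:35119293-35121928. On the minus strand it places Klf4 (ENSMUSG00000003032) at chr4:55527143-55532466, Grhl3 (ENSMUSG00000037188) at chr4:135541888-135573630, Ovol1 (ENSMUSG00000024922) at chr19:5549136-5560646, Zfp750 (ENSMUSG00000039238) at chr11:121510978-121519333, Prdm1 (ENSMUSG00000038151) at chr10:44437177-44528501 and Gata3 (ENSMUSG00000015619) at chr2:9857078-9890034.

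Reads assigned to genes lay between 53433121 and 115526598 per library, so that 3 counts, the limit read from a count of 0, corresponded to at most 0.0558 CPM (counts per 1000000 gene counts, after TMM scaling). This limit covers counting error only. Dnmt1 had 394, 379 and 324 CPM in the control libraries, against 49.7, 54.3 and 50.7 CPM in the Dnmt1Δ/Δep libraries (log2 fold change −2.83, SE 0.11, adjusted p = 8.1e-05, edgeR's quasi-likelihood test). Markers of the labelled cell type were abundant: 10 keratinocyte markers summed to 36531 to 41507 CPM in control against 28640 to 29840 CPM in Dnmt1Δ/Δep libraries. Most of this sum was Krt5 and Krt14, and Krt15 of the same list was called down (7.31 ± 5.20 and 0.578 ± 0.0830 CPM, SD, n = 3, adjusted p = 0.019, edgeR). Control replicate 1 stood apart from the other control libraries in the differentiation keratin Krt1, which had 53.2, 356 and 530 CPM in control against 66.1, 59.2 and 65.5 CPM in Dnmt1Δ/Δep libraries.

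None of the 9 factors passed both an adjusted p of 0.05 and a 2-fold change. Of all 16829 genes tested, 6.42% did, 6.03% upwards and 0.392% downwards. At the adjusted p alone, 1 factor passed, Gata3, which fell. Of all genes 9.36% passed it in either direction, 7.71% upwards and 1.66% downwards. At an unadjusted p of 0.05, 3 of the 9 (33.3%) passed, Gata3, Klf4 and Prdm1, beside 23.6% of all genes, and in DESeq2 the count at its adjusted p was 1 higher and 1 lower. In the same 3 factors the groups did not overlap (33.3%, beside 29.9% of all genes), a share near that of all genes. Of the 9 log2 fold changes 5 were positive and 4 negative, with a median of 0.11, and the median over all genes was near 0.

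**Figure D1:**
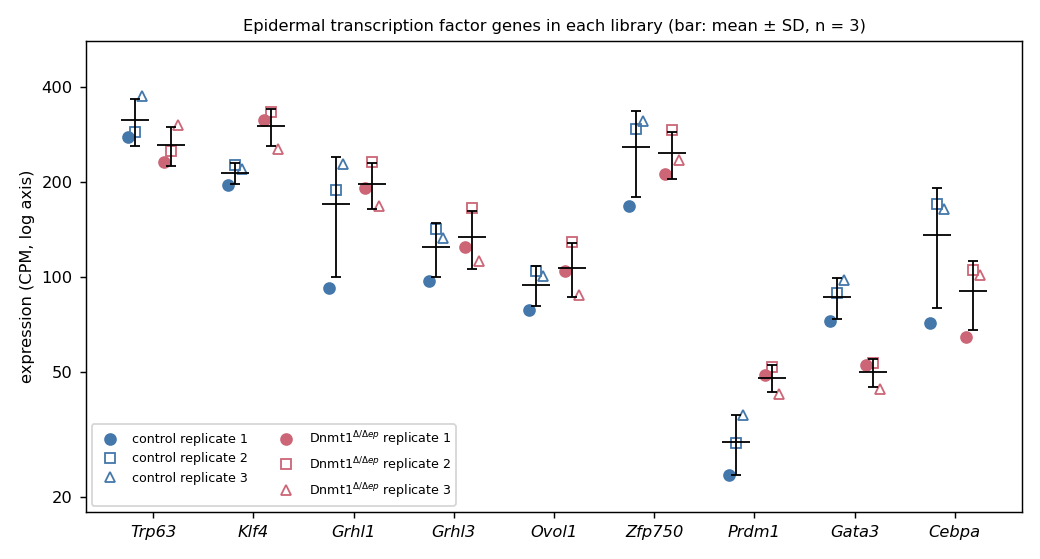
Expression of each of the 9 genes in each of the 6 libraries, in CPM on a log axis. Circles, squares and triangles are replicates 1, 2 and 3, blue for control and red for Dnmt1Δ/Δep, and bars give the mean ± SD (n = 3). Control replicate 1 (blue circles) is the lowest control library for all 9 genes, and the groups are separate for Klf4, Prdm1 and Gata3.

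Gata3 was the factor that fell. Its levels were 72.4, 89.4 and 98.1 CPM in the control libraries, against 52.5, 53.4 and 44.1 CPM in the Dnmt1Δ/Δep libraries. Every Dnmt1Δ/Δep library lay below every control library, as did those of 11.7% of all genes. The means were 86.6 ± 13.1 and 50.03 ± 5.12 CPM (SD, n = 3), a ratio of 0.578 (log2 fold change −0.79, SE 0.14, 95% interval −1.12 to −0.46, adjusted p = 0.015, edgeR). The adjusted p was 0.026 in edgeR when replicates were blocked by number, and 9.8e-05 in DESeq2. The call was lost without some of the libraries. The adjusted p in edgeR was 0.068 without control replicate 2, 0.056 without Dnmt1Δ/Δep replicate 1 and 0.059 without Dnmt1Δ/Δep replicate 3, with the log2 fold change between −0.91 and −0.70 whichever library was left out. In the annotation, 5.83% of the Gata3 exon bases are shared with 9230102O04Rik and Gm13256, which had at most 10 and 13 counts in any library.

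Inner root sheath cells of the hair follicle use GATA3, and their defining keratins were near 0. Krt25, Krt27, Krt28, Krt71, Krt72 and Krt73 each stayed at or below 0.349 CPM in every library. The list of 7 inner root sheath markers summed to 22.8 to 30.5 CPM in control against 27.7 to 31.0 CPM in Dnmt1Δ/Δep libraries, nearly all of it Tchh, and 0 of its 3 tested genes passed in edgeR. T cells also use GATA3, and the CD3 chains Cd3d, Cd3e and Cd3g did not exceed 0.0232 CPM in any library. The 7 T cell markers with a row summed to 1.396 to 2.30 CPM in control against 2.46 to 3.98 CPM in Dnmt1Δ/Δep libraries, most of it Thy1.

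Klf4, a zinc finger factor of barrier formation, was higher in every Dnmt1Δ/Δep library than in any control library, and its test missed the threshold. Groups without overlap, in either direction, were found for 29.9% of all genes. The Klf4 levels were 195, 227 and 220 CPM in control against 315, 334 and 256 CPM in Dnmt1Δ/Δep libraries, with Dnmt1Δ/Δep replicate 3 nearest to the control range. The means of 214 ± 16.6 and 302 ± 40.8 CPM (SD, n = 3) gave a log2 fold change of 0.49 (SE 0.13, 95% interval 0.20 to 0.79, 1.41-fold, adjusted p = 0.053, edgeR). When replicates were blocked by number, the log2 fold change was 0.49 and the adjusted p in edgeR 0.045, past the threshold. In DESeq2 the adjusted p was 0.051. Of the 6 edgeR fits that left out 1 library, 1 passed, that without Dnmt1Δ/Δep replicate 3 (log2 fold change 0.60, adjusted p = 0.044), and the adjusted p reached 0.22 without Dnmt1Δ/Δep replicate 2 (0.36).

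Prdm1, the gene of the repressor BLIMP1, had the largest positive log2 fold change of the 9. It was measured at 23.6, 29.8 and 36.6 CPM in control against 49.1, 52.0 and 42.7 CPM in Dnmt1Δ/Δep libraries, again without overlap and with Dnmt1Δ/Δep replicate 3 the lowest of its group. The means were 30.0 ± 6.46 and 47.9 ± 4.75 CPM (SD, n = 3), and the log2 fold change was 0.68 (SE 0.17, 95% interval 0.28 to 1.08, 1.60-fold, adjusted p = 0.051, edgeR). The adjusted p was 0.015 with DESeq2, 0.054 in edgeR with the replicate block, 0.049 without control replicate 1 and 0.028 without control replicate 3. It missed the threshold in the other 4 edgeR fits that left out 1 library, where it reached 0.18 without Dnmt1Δ/Δep replicate 2. BLIMP1 is also made by plasma cells and by sebaceous gland cells. The 5 B and plasma cell markers summed to 0.0513 to 0.0951 CPM in control against 0.0463 to 0.587 CPM in Dnmt1Δ/Δep libraries. Of these, Cd79a had means of 0.0530 and 0.0821 CPM. Mzb1, a gene of plasma cells, had 0, 0.0103 and 0 CPM in control and 0.235, 0.0347 and 0.0593 CPM in Dnmt1Δ/Δep libraries. These Mzb1 values are 0, 1 and 0 counts against 14, 3 and 7. The limit for a count of 0 was 0.0558 CPM in control replicate 3, so Dnmt1Δ/Δep replicate 2 is not resolved from it. The part of such cells in the Prdm1 values was not tested. The 6 sebocyte markers, led by Scd3, summed to 0.729 to 1.13 and 0.740 to 1.18 CPM.

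Promoters of these 3 genes are shown because CpG sites are where DNMT1 acts and because the groups did not overlap in these 3. No methylation was measured in these libraries. The sequences are the 250 bases before the annotated start, from RefSeq on GRCm38.p6, written 5′ to 3′ on the minus strand on which each gene lies, with CpG sites in capitals. They cover chr2:9878601-9878850 for Gata3 with 19 CpG sites, chr4:55532476-55532725 for Klf4 with 32, and chr10:44458749-44458998 for Prdm1 with 15. The starts used for Gata3 and Prdm1 lie inside the GENCODE spans of these genes, which extend further upstream.
Gata3: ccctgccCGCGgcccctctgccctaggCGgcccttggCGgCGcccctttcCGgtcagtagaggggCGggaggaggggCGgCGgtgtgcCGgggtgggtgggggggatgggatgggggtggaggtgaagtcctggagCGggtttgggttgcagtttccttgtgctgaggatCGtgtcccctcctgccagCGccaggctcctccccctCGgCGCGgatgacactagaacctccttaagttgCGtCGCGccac
Klf4: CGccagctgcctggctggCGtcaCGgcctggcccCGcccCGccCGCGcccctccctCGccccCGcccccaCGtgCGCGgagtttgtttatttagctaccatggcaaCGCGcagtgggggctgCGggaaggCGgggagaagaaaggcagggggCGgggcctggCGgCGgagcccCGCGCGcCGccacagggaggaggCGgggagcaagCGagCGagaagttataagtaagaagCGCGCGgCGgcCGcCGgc
Prdm1: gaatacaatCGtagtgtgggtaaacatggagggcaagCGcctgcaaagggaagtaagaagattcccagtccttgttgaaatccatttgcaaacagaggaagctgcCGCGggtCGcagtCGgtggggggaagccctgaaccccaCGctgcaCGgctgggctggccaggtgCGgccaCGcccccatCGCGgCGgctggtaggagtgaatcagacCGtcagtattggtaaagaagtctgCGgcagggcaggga
Windows of 300 bases, with 50 bases after the start added, were at hand for 6 of the 9 genes (Gata3, Klf4, Prdm1, Grhl3, Cebpa and Grhl1, the last with 2 starts). The Klf4 window held 40 CpG sites, more than 96.1% of 32851 RefSeq windows, whose median was 7. The Gata3 and Prdm1 windows, with 22 and 20 sites, lay at the 76.9 and 73.5 percentiles. Cebpa had 29 sites and Grhl3 had 12, while the windows at the 2 Grhl1 starts had 35 and 0. Short motifs were searched on both strands: ACCGGT for GRHL factors, CACCC for KLF factors and GATAA for GATA factors. CACCC occurred 3 times in the Gata3 window, 3 times in Grhl3, 2 times in Cebpa and 2 times at the second Grhl1 start, beside 57.5% of all windows with a match. ACCGGT (2.33% of all windows) and GATAA (25.4%) had no match in the windows of these 6 genes.

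Cebpa had the second most negative fold change after Gata3, with a wide error. The control libraries had 71.4, 171 and 165 CPM and the Dnmt1Δ/Δep libraries 64.4, 105 and 101 CPM, so that control replicate 1 fell within the range of the Dnmt1Δ/Δep libraries. The means were 136 ± 55.8 and 90.3 ± 22.5 CPM (SD, n = 3), with a log2 fold change of −0.59 (SE 0.34, 95% interval −1.38 to 0.21, adjusted p = 0.36, edgeR). Without control replicate 1 the log2 fold change was −0.90 with an adjusted p in edgeR of 0.034, and in the other 5 fits that left out 1 library it did not pass, with an adjusted p of up to 0.68. Adipocytes also use CEBPA: their marker list of 6 summed to 0.603 to 0.770 CPM in control against 5.53 to 7.88 CPM in Dnmt1Δ/Δep libraries, mostly through Fabp4, which was called up in edgeR, while Adipoq stayed at or below 0.106 CPM.

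Trp63, the basal identity factor, had the highest CPM of the 9 in control and its groups overlapped. It was measured at 279, 289 and 376 CPM in control against 232, 252 and 304 CPM in Dnmt1Δ/Δep libraries. The ranges overlapped through Dnmt1Δ/Δep replicate 3, which was above 2 of the control libraries. The means were 315 ± 53.2 and 263 ± 37.1 CPM (SD, n = 3), with a log2 fold change of −0.26 (SE 0.16, 95% interval −0.62 to 0.10, adjusted p = 0.38, edgeR). The interval does not reach a 2-fold fall. Its isoforms share most exons, and counts per gene cannot separate them.

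The grainyhead factors differed little on average. Grhl1 had 92.2, 190 and 229 CPM in control against 191, 232 and 168 CPM in Dnmt1Δ/Δep libraries, and control replicate 1 alone lay below all Dnmt1Δ/Δep libraries. Its log2 fold change was 0.21 (SE 0.31, 95% interval −0.51 to 0.93, adjusted p = 0.77, edgeR), and −0.09 without control replicate 1. Grhl3 had 97.2, 143 and 133 CPM in control against 124, 165 and 113 CPM in Dnmt1Δ/Δep libraries, with overlapping groups and a log2 fold change of 0.11 (SE 0.19, 95% interval −0.34 to 0.56, adjusted p = 0.81, edgeR).

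Ovol1 and Zfp750 lay in overlapping ranges in the groups compared. Ovol1 had 78.8, 104 and 101 CPM in control against 105, 129 and 87.9 CPM in Dnmt1Δ/Δep libraries (log2 fold change 0.18, SE 0.17, 95% interval −0.22 to 0.58, adjusted p = 0.61, edgeR). Annotated genes on the opposite strand overlap 21.96% of its exon bases, and the strand setting of the counting is not given in the sources used here. Zfp750 had 168, 295 and 313 CPM in control against 212, 294 and 236 CPM in Dnmt1Δ/Δep libraries, with a log2 fold change of −0.06 (SE 0.24, 95% interval −0.63 to 0.50, adjusted p = 0.93, edgeR). It lies within Tbcd, with which it shares no exon bases, and Tbcd had 155 ± 3.36 and 151 ± 9.81 CPM (SD, n = 3). For Trp63, Grhl3, Ovol1, Zfp750 and Grhl1 the 95% intervals exclude a 2-fold change in either direction, and for Cebpa the interval includes a 2-fold fall.

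**Figure D2:**
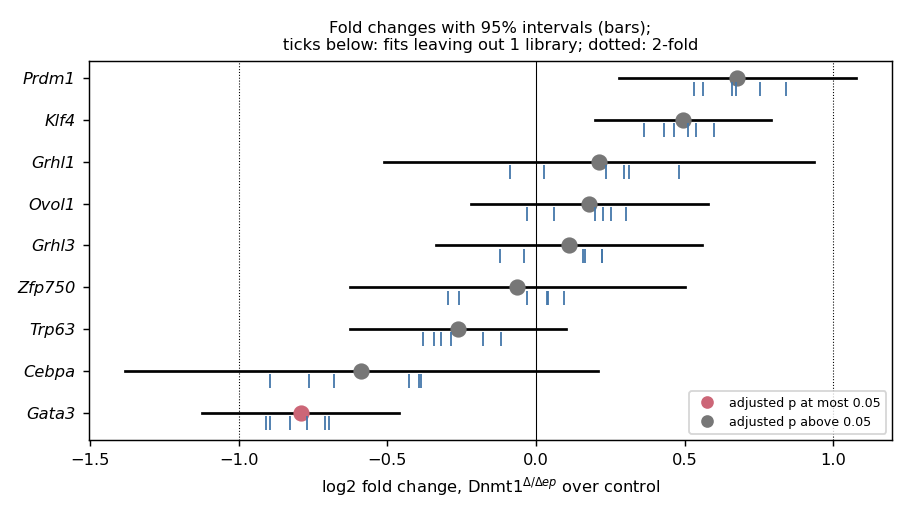
Log2 fold change of each gene, Dnmt1Δ/Δep over control, from edgeR (points) with its 95% interval (bars), and blue ticks for the fits that leave out 1 library each. Dotted lines mark a 2-fold change, and Gata3 (red) is the one gene with an adjusted p of at most 0.05. The intervals of Prdm1, Klf4 and Gata3 do not include 0.

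The libraries had an order of their own across the factors. Control replicate 1 was the lowest control library for 9 of the 9 genes, beside 41.2% of all genes, and Dnmt1Δ/Δep replicate 2 was the highest of its group for 8 of 9 (88.9%), beside 31.5% of all genes. The exception was Trp63, which was highest in Dnmt1Δ/Δep replicate 3. Control replicate 1 was also the lowest control library for 21 of 28 genes of terminal differentiation (75%), 26 of 34 other epidermal transcription factors (76.5%) and 11 of 17 relatives of the factors (64.7%). It was the lowest for 6 of 13 chromatin partners (46.2%) and for 5 of 17 basal layer genes (29.4%), and the highest for 10 of these 17 (58.8%). Whether the culture of that library differed in its state was not tested. The factors summed to 1079 to 1671 CPM in control libraries and 1346 to 1618 CPM in Dnmt1Δ/Δep libraries, so the control libraries spanned the wider range.

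Libraries with the same replicate number shared a lane of the flow cell, and their differences can be read pair by pair as log2 ratios of CPM with 0.1 added. In pair 1, 6 of the 9 factors were higher in Dnmt1Δ/Δep, in pair 2 there were 5, and in pair 3 there were 2, beside 8544, 8408 and 8810 of all 16829 genes. The sign was the same in all 3 pairs for 5 of the 9 factors, as for 8923 of all genes, which is a similar share. These were Prdm1 (1.05, 0.80 and 0.22) and Klf4 (0.69, 0.56 and 0.22) on the positive side, and Gata3 (−0.46, −0.74 and −1.15), Cebpa (−0.15, −0.70 and −0.70) and Trp63 (−0.27, −0.20 and −0.31) on the negative side. The other factors changed sign. Grhl1 went from 1.05 in pair 1 to 0.29 and −0.44 in pairs 2 and 3, Grhl3 had 0.36, 0.21 and −0.24, Ovol1 had 0.41, 0.31 and −0.20, and Zfp750 had 0.34, −0.00 and −0.41. In each of the 9 factors the ratio of pair 1 was above that of pair 3, and for Trp63 by the least. Control replicate 1, the lowest control library for all 9, is the divisor in pair 1, so this order partly restates its low position.

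**Figure D3:**
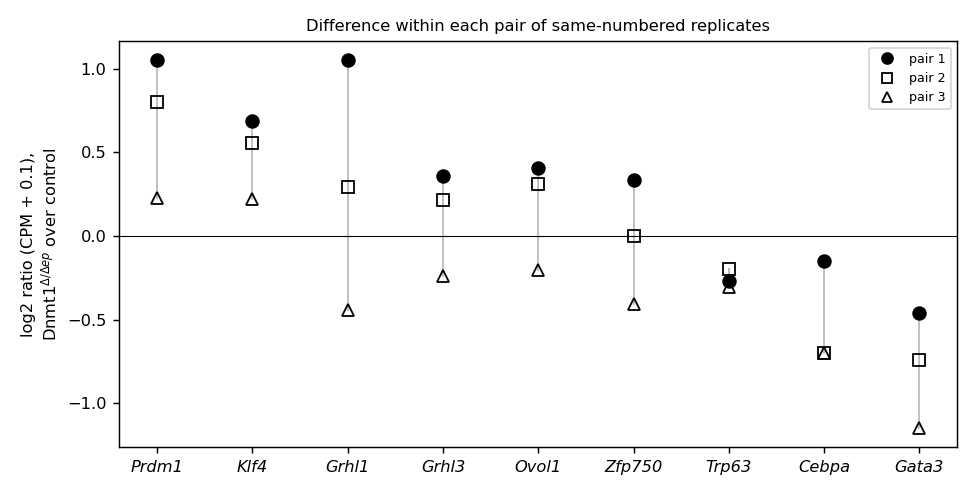
Log2 ratio of CPM (with 0.1 added) of Dnmt1Δ/Δep over control within each pair of same-numbered replicates, for each of the 9 genes. Circles, squares and triangles are pairs 1, 2 and 3, and the grey line joins them. Prdm1 and Klf4 lie above 0 and Gata3, Cebpa and Trp63 below 0 in all 3 pairs, while Grhl1, Grhl3, Ovol1 and Zfp750 lie on both sides.

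Levels between genes were compared per kilobase of exon (RPKM). In control, Zfp750 was highest with 80.0 ± 24.3 RPKM, followed by Klf4 with 70.2 ± 5.45, Cebpa with 51.5 ± 21.2 and Grhl3 with 44.6 ± 8.58 RPKM (SD, n = 3). Trp63 had 37.5 ± 6.34 RPKM, Grhl1 30.8 ± 12.7, Ovol1 27.2 ± 3.98, Gata3 21.8 ± 3.29 and Prdm1 5.38 ± 1.16 RPKM. Neighbours in this order overlapped between libraries, except for Gata3 and Prdm1. Within each of the 3 control libraries Klf4 was above Cebpa, Grhl3 above Trp63, Trp63 above Grhl1 and Ovol1 above Gata3. Zfp750 was above Klf4, Cebpa above Grhl3 and Grhl1 above Ovol1 in 2 of the 3. In Dnmt1Δ/Δep, Klf4 was first with 99.0 ± 13.4 RPKM and Zfp750 second with 76.6 ± 13.0, and Cebpa took the fifth place with 34.3 ± 8.54 RPKM. Gata3 with 12.6 ± 1.29 and Prdm1 with 8.59 ± 0.852 RPKM remained the lowest, and there the steps from Zfp750 to Grhl3, from Ovol1 to Gata3 and from Gata3 to Prdm1 were free of overlap. The ratio of the Gata3 level to the Prdm1 level was thus smaller in Dnmt1Δ/Δep, with Gata3 still above Prdm1. All of the factors were well expressed, from the 57.1 percentile (Prdm1) to the 97.0 percentile (Zfp750) of the control RPKM of the genes tested.

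**Figure D4:**
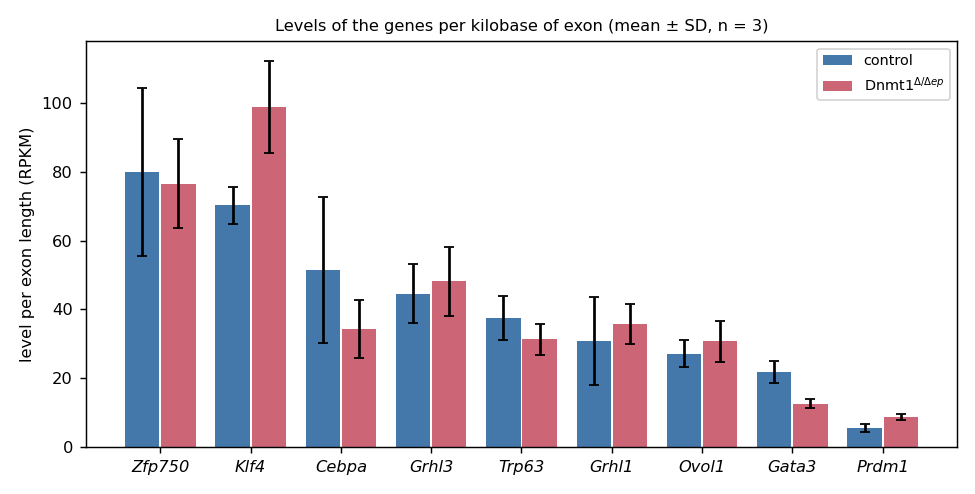
Level of each gene per kilobase of exon (RPKM) in control (blue) and Dnmt1Δ/Δep (red), with bars from 0 to the mean and error bars of ± SD (n = 3). Zfp750 leads in control at 80.0 RPKM and Klf4 leads in Dnmt1Δ/Δep at 99.0 RPKM, and Prdm1 is lowest in both.

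Profiles over the 6 libraries were compared by the root mean square distance of centred log2 CPM, where 0 means the same profile. Among the factors, Grhl3 and Ovol1 were closest at 0.064, followed by Grhl3 with Zfp750 at 0.171 and Klf4 with Prdm1 at 0.174, and Prdm1 with Gata3 was the farthest pair at 0.741. Cebpa and Grhl1 had the widest range over the libraries. Of 9309 genes with at least 10 CPM on average, Itpkc (0.106), Rasgrp1 (0.110) and Arhgap24 (0.136) had the profiles nearest to Cebpa, and Hspa1a (0.0962), Gltp (0.106) and Lypd3 (0.108) those nearest to Grhl1. These distances describe 6 libraries, which share the low position of control replicate 1.

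Of 19 genes of the same families as the factors 17 were tested in edgeR, none passed both thresholds (6.42% of all genes did), and 1 passed the adjusted p alone (9.36% of all genes did): Trp73, the p63 paralog, which fell from 9.46 ± 0.437 to 4.82 ± 1.14 CPM (mean ± SD, n = 3, adjusted p = 0.028, log2 fold change −0.97). Trp73 passed in 1 of 6 edgeR fits that left out 1 library, with an adjusted p of up to 0.097. DESeq2 called 1 gene of the list down, beside 122 of all 20126 genes tested there. With the replicate block 2 of the list were higher and 2 lower at the adjusted p alone. With that block 1 was called up, Gata6 (1.06, adjusted p in edgeR 0.048), at 1.10 and 2.17 CPM on average, beside 1173 of all 16829 genes. The most abundant relatives had log2 fold changes of −0.02 for Klf6, −0.51 for Klf5 (adjusted p in edgeR 0.064, and 0.022 with the replicate block), 0.10 for Klf3 and −0.23 for Klf10. The list's median was −0.02, and the groups did not overlap for 5 of the 17 tested, near the 29.9% of all genes.

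Of 34 other transcription factors of the epidermis and its appendages, none passed both thresholds in edgeR, beside 6.42% of all genes. At the adjusted p alone 2 passed, beside 9.36% of all genes. DESeq2 called 1 of the list up and 1 down, beside 1396 and 122 of all 20126 genes tested there. Elf3, an epithelial ETS factor, rose from 15.4 ± 2.46 to 28.3 ± 5.12 CPM (log2 fold change 0.88, adjusted p = 0.025, edgeR), and Bcl11b, a zinc finger factor of skin and T cells, fell from 164 ± 39.4 to 83.9 ± 13.0 CPM (log2 fold change −0.97, adjusted p = 0.027, edgeR; SD, n = 3). Leaving out 1 library, Elf3 passed in 3 of 6 edgeR fits and Bcl11b in 1 of 6, with adjusted p of up to 0.11 and 0.10. The abundant Sox9, Fosl2 and Myc had log2 fold changes of −0.17, −0.09 and −0.15. The median was −0.14. With the replicate block 2 were higher and 6 lower at the adjusted p alone, and Ehf, an ETS factor, was called up (1.27, adjusted p in edgeR 0.038). Without control replicate 1 the list had 5 genes called down. Calls down over all genes also rose in that fit, to 180 of 17219 from 66 of 16829 with all libraries. Of 13 chromatin partners of p63, KLF4 and ZFP750 in keratinocytes none passed the adjusted p in edgeR or DESeq2 and 1 passed at an unadjusted p of 0.05 in edgeR. Their log2 fold changes ran from −0.30 to 0.28, with −0.00 for Smarca4, −0.03 for Ctbp1, −0.12 for Rcor1 and −0.14 for Kdm1a.

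Genes of the basal layer, many of them p63 targets, included several falls of less than 2-fold. Of 17 tested, 1 was called down in edgeR and 0 up, beside 0.392% and 6.03% of all genes. At the adjusted p alone 6 fell and 1 rose, beside 1.66% and 7.71% of all genes. The groups did not overlap for 10 of the 17, beside 29.9% of all genes. Of the 17 log2 fold changes 9 were positive, and the median was 0.07. Fras1, an extracellular matrix gene of the basement membrane, fell from 55.8 ± 14.0 to 24.8 ± 4.18 CPM (log2 fold change −1.17, adjusted p = 0.015). The paired basal keratins fell as well: Krt5 from 17880 ± 1179 to 12655 ± 112 CPM (−0.50, adjusted p = 0.038) and Krt14 from 9438 ± 978 to 6183 ± 463 CPM (−0.61, adjusted p = 0.028; SD, n = 3, edgeR). Fgfr2, the keratinocyte growth factor receptor, also fell (log2 fold change −0.94, adjusted p = 0.003) and passed in 6 of 6 edgeR fits that left out 1 library. Dst (−0.76) and Col17a1 (−0.55), genes of the hemidesmosome, also fell, and Jag1, a Notch ligand, rose (0.63). Perp had a log2 fold change of −0.34 and did not pass. With the replicate block 3 genes of the list were higher and 6 lower at the adjusted p alone in edgeR. Of the 6 edgeR fits that left out 1 library, Dst passed in 5, Fras1 and Col17a1 in 3, Krt14 in 2, and Krt5 and Jag1 in 1. The list had 2 genes called down without Dnmt1Δ/Δep replicate 3, beside 42 of all 16973 genes tested.

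Genes of terminal differentiation did not move one way. Of 29 listed 28 were tested, and 1 was called up in edgeR and 0 down, beside 6.03% and 0.392% of all genes. At the adjusted p alone 2 rose and 0 fell, beside 7.71% and 1.66% of all genes. The median log2 fold change was 0.12 with 17 positive and 11 negative values. Alox12b, a lipoxygenase of the lipid barrier, rose from 8.99 ± 0.341 to 38.4 ± 11.4 CPM (log2 fold change 2.096, adjusted p = 0.002), and Cldn4, a tight junction gene, rose by less than 2-fold, from 635 ± 34.5 to 1003 ± 136 CPM (0.66, adjusted p = 0.019; SD, n = 3, edgeR). Of the 6 edgeR fits that left out 1 library, Alox12b passed in 6 and Cldn4 in 2. The abundant Dmkn, Ppl and Sbsn had log2 fold changes of 0.07, 0.10 and 0.22. Krt1 had −2.30 with an adjusted p of 0.085 in edgeR, and Krt10 had −1.58 with 0.069. In the edgeR fits that left out 1 library, Ivl had 1.31 to 2.16 and Lor 1.15 to 2.03. Ivl passed in 2 of these 6 fits, and Lor, Krt1 and Krt10 in 1 each. In DESeq2 the adjusted p was 8.3e-04 for Ivl, 4.1e-04 for Lor, 8.9e-04 for Krt10 and 0.041 for Krt1. DESeq2 called 3 genes of this list up and 2 down, beside 1396 and 122 of all 20126 genes tested there. In edgeR 3 were called up without control replicate 3 or without Dnmt1Δ/Δep replicate 3, beside 915 and 761 of all genes. Without control replicate 1 edgeR called 4 down, beside 180 of all 17219 genes tested. With the replicate block Tgm3, a transglutaminase, was called down (−1.18, adjusted p in edgeR 0.026).

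**Figure D5:**
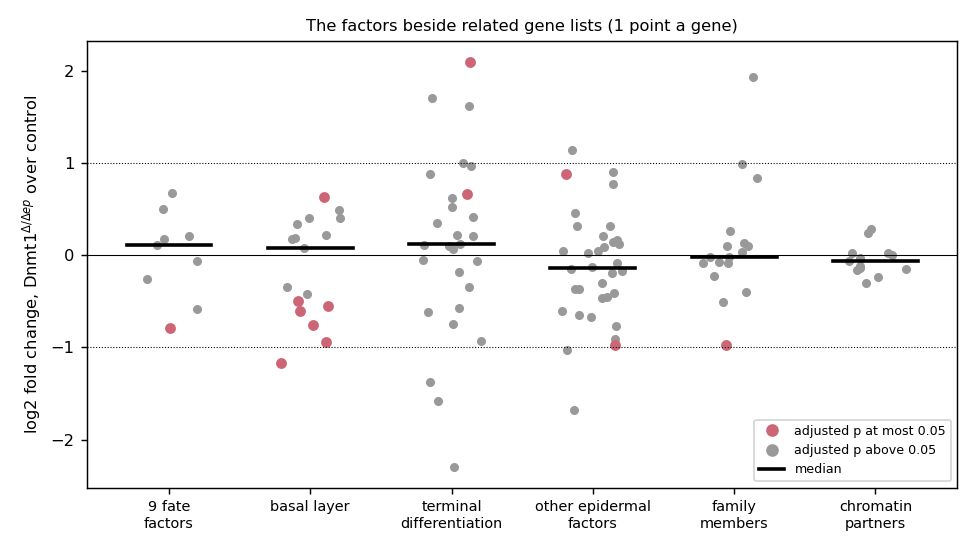
Log2 fold change, Dnmt1Δ/Δep over control, of each tested gene in the 9 factors and in 5 related lists, 1 point a gene, with the median as a line. Red points have an adjusted p of at most 0.05 in edgeR and dotted lines mark a 2-fold change. The medians of the 6 columns lie between −0.14 and 0.12, and Fras1 and Alox12b are the red points beyond 2-fold.

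Markers of other cell types were low beside those of keratinocytes, and some differed between the groups. Melanocyte markers summed to 224 to 573 CPM in control against 688 to 912 CPM in Dnmt1Δ/Δep libraries, led by Pmel, with 0 of 7 called in edgeR. Among neutrophil markers S100a8 and S100a9, which keratinocytes also make, were called up, and the list summed to 49.3 to 126 and 192 to 253 CPM, while Csf3r was at 0 and Ly6g, Mpo and Elane stayed at or below 0.0372 CPM. Macrophage and Langerhans cell markers summed to 0.275 to 1.04 and 2.56 to 4.50 CPM, with Csf1r and Itgam called up and Adgre1 and Cd207 near 0. Endothelial markers summed to 5.29 to 17.1 and 14.5 to 21.7 CPM, with Kdr first in control and Pecam1 first in Dnmt1Δ/Δep, and with Pecam1 and Cdh5 called up. Fibroblast markers, with Col3a1 first in control and Col1a1 first in Dnmt1Δ/Δep, summed to 14.6 to 31.8 and 14.8 to 63.9 CPM with 0 of 8 called. The part of these cells in the values of the 9 factors was not tested.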

How the data were processed

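Poly(A)-selected RNA of keratinocyte cultures from 3 control and 3 Dnmt1Δ/Δep mice was sequenced. Replicates are separate mice. The authors trimmed adapters, discarded short and ribosomal reads, aligned with STAR and used htseq-count on uniquely mapped reads. The deposited gene table holds raw counts. The submitters' processing notes name GRCm38, whereas the methods text names a human build for the index. The 5 entries that name no gene held 8.73% to 12.9% of the counts and were left out. The authors' tables of their own DESeq2 comparisons (means, log2 fold changes, p-values, normalized counts) and the repeat counts were not used.

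Counts were tested with edgeR 4.0.16 (R 4.3.3, package data.table, version 1.17.8): TMM factors, filterByExpr (minimum counts 10 and 15), quasi-likelihood test, Benjamini-Hochberg adjustment over 16829 genes, and calls at a 2-fold change with adjusted p of at most 0.05. CPM are counts per 1000000 of the filtered and TMM-scaled library size, and RPKM used the union of GENCODE M21 exons (GRCm38). Alternatives were RLE and upper-quartile factors, DESeq2 1.42.0, no filter, a replicate block and leaving out each library. Python 3.11.15, pandas 2.3.3 and matplotlib 3.10.9 made tables and figures. Symbols matched 42548 of 43629 genes, and the marker Trdc had no row.

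The 9 genes, the lists and the rule for named genes were chosen with earlier results of these data known. Named were the 9 factors, Dnmt1, the genes called in each related list with its 4 most abundant others (of which 2 in all are not reported here), the most abundant marker of each cell type, and the 3 genes most like each of the 2 factors with the widest range. Every other gene given with a value, such as Krt1, Krt10, Ivl, Lor, Trp73, Gata6, Elf3, Bcl11b, Ehf, Fgfr2, Dst, Col17a1, Jag1, Tgm3, Krt15 and Mzb1, was named after its values were seen. Same-numbered replicates share a flow-cell lane according to the column headers (3 lanes), and their deviations from the group means correlated across genes with r of 0.45, 0.31 and 0.30 for replicates 1, 2 and 3, so the numbers were taken to pair the libraries. The study's methods use no block.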

Additional observations from a re-analysis of the deposited data

How the results depend on the processing

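No factor passed both thresholds under any of the 11 alternatives. Of all genes, 559 were called up and 15 down of 17298 tested without control replicate 2, and 1396 up and 122 down of 20126 with DESeq2. Shares this small leave few calls to find among 9 genes in any setting. The count of factors higher at the adjusted p alone was 0 and became 2 with upper-quartile factors (Klf4 and Prdm1) and 1 with DESeq2, with no filter on low counts (Prdm1 in both) and with the replicate block (Klf4), and it lay between 0 and 1 when 1 library was left out. The count of lower factors was 1 and lay between 0 and 2 when 1 library was left out: 0 without control replicate 2 and without Dnmt1Δ/Δep replicates 1 and 3, and 2 without control replicate 1. Among the 9 factors the replicate block changed no call but that of Klf4. Grhl1, Grhl3, Ovol1 and Zfp750 changed sign when 1 library was left out, with log2 fold changes from −0.088 to 0.48 for Grhl1, −0.12 to 0.22 for Grhl3, −0.030 to 0.30 for Ovol1 and −0.30 to 0.094 for Zfp750. The ranges were 0.36 to 0.60 for Klf4, 0.53 to 0.84 for Prdm1, −0.91 to −0.70 for Gata3, −0.90 to −0.39 for Cebpa, −0.38 to −0.12 for Trp63 and −2.92 to −2.77 for Dnmt1. Ordered by CPM in place of RPKM, 6 factors took another rank in control. The cause of these shifts was not tested. The lowest count of any of the 9 factors in a library was 1964 (Prdm1).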
